A study of Mus musculus with 4 samples.

Results

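Gap43, Marcksl1, Crmp1 and Calm2 encode proteins of the axonal growth cone, and their footprints at translation initiation sites were examined in 4 libraries of primary mouse cortical neurons treated with harringtonine at 5 µg/ml for 3 min. Harringtonine holds ribosomes that have just begun translation at the start codon, so a footprint there counts an initiating ribosome. All 4 genes were found by symbol, each with 1 transcript, among the 6352 transcripts of the table. They were chosen by name with their levels in these same libraries already known, including the gap in Crmp1 between the Ltn1 KO libraries. Their values are therefore a description and carry no test. Ltn1 encodes a ubiquitin ligase of ribosome-associated quality control, and Ttc3 another ubiquitin ligase. By titles and characteristics, the groups with Ttc3 RNAi were Ltn1 KO neurons (library KO SC) and WT neurons (WT SC). Those with scrambled RNAi were Ltn1 KO neurons (KO TTC) and WT neurons (WT TTC), with 1 library each. No library was replicated, so all intervals are 95% intervals that cover counting error only. Libraries are named throughout by their labels, since these labels conflict. Titles and characteristics assign Ttc3 RNAi to the SC libraries and scrambled RNAi to the TTC libraries, whereas the letters of the codes point the other way. Were the codes right, each ratio of SC over TTC below would be scrambled over Ttc3 RNAi. The SC pair would then be the scrambled arm and the TTC pair the Ttc3 RNAi arm.

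The growth cone is the motile tip of a growing axon, where membrane, actin and microtubules are remodelled in response to guidance cues. GAP43 and the MARCKS proteins lie on the inner face of its membrane, where they bind calmodulin, phosphoinositides and actin and are substrates of protein kinase C. CRMP1 belongs to the collapsin response mediator proteins, which bind tubulin and relay semaphorin signals to the cytoskeleton. Calmodulin, the protein made from Calm2, is the calcium sensor that binds GAP43 and many kinases and phosphatases. Gap43 and Crmp1 are typical of young neurons that extend axons.

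Total reads recovered from the RPM steps were 2673112 in KO SC, 2096153 in WT SC, 3655827 in KO TTC and 1460425 in WT TTC, of which 6.06% to 6.85% lay at the listed sites. The gene targeted in the mice, Ltn1, had 37 reads in KO SC, 10 in WT SC, 0 in KO TTC and 2 in WT TTC. The SC libraries thus ran against their genotype labels at this site. If the site lies inside the deleted part, the 37 reads in KO SC go against the genotype label of that library. If it lies outside, it checks nothing. The sources used here do not give the deleted part, so each Ltn1 KO direction below rests on the label alone. Ttc3 had 2 reads in KO SC, 3 in WT SC and 0 in KO TTC and WT TTC, too few to check the RNAi. The 13 neuron markers listed were all measured and summed to between 1561 and 1751 RPM, most of it from Tubb3 (1043 to 1278 RPM), while Slc17a6 had 0 reads in KO SC and WT SC and Rbfox3 had 3 to 27 reads a library. The 4 genes together took 1.62% of the reads at listed sites in KO SC, 1.39% in WT SC, 1.59% in KO TTC and 1.30% in WT TTC.

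Of the 4 genes, the RefSeq promoter table for GRCm38.p6 matched Marcksl1 with 1 start and Crmp1 with 2. The starts of Crmp1 are shown because it is the gene with the widest range and the table of footprints has 1 Crmp1 transcript only and does not say which start it uses, and that of Marcksl1 because it opens the leader that is scanned before initiation. Each run spans 150 bases, from 100 before to 50 from the first transcribed base onward, 5′ to 3′ on the coding strand, with GC boxes (GGGCGG, either strand) in capitals.
Crmp1, upstream start, chr5:37241958-37242107, plus strand: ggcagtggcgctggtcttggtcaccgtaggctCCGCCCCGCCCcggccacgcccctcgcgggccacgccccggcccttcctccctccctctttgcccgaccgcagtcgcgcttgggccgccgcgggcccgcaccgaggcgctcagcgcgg
Crmp1, downstream start, chr5:37245664-37245813, plus strand: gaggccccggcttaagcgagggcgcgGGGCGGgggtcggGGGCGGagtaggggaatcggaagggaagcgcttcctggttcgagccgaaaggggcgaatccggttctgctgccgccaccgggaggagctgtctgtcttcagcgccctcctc
Marcksl1, chr4:129513481-129513630, plus strand: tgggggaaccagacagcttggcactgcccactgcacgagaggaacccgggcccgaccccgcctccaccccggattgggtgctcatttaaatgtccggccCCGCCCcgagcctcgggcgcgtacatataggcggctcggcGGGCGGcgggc

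Each printed run held 2 GC boxes, which overlap by 1 base at the upstream Crmp1 start. The full windows of 300 bases held 5 at the upstream Crmp1 start, overlapping ones counted, 2 at the downstream Crmp1 start and 2 in Marcksl1. At least 1 GC box was found in 35.7% of all 32851 promoter windows of 300 bases. None of the 3 windows held TATAAA on either strand, against 13.6% of all windows that did. The first 50 transcribed bases, the start of the leader, were 84.0% G or C at the upstream Crmp1 start, 68.0% at the downstream Crmp1 start and 80.0% in Marcksl1. The median over all windows was 56.0%. None of these leaders had an ATG in its first 50 bases, whereas 44.3% of all windows had one.

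The positions given with each gene below are RefSeq gene spans, not spans of the transcript counted. Gap43 (ENSMUST00000102817.4, chromosome 16, 42248552 to 42340651 on GRCm38) encodes the growth-associated protein of the growth cone membrane. It had 349 RPM in KO SC (933 reads), compared with 262 RPM in WT SC (549 reads). Its level was 412 RPM in KO TTC (1508 reads), compared with 283 RPM in WT TTC (414 reads). Both Ltn1 KO libraries lay above both WT libraries with no overlap of the counting intervals. The order was KO TTC (392 to 434 RPM), KO SC (327 to 372 RPM), WT TTC (257 to 312 RPM) and WT SC (240.5 to 285 RPM), and only the WT libraries overlapped. Libraries differ by more than counting error in general. Over transcripts with at least 20 reads, the squared gap between genotypes averaged 3.28 (SC pair) and 3.17 (TTC pair) times its counting variance. The share of all transcripts whose intervals fail to overlap was not counted, so the lack of overlap sets Gap43 apart from none of them. The ratio of Ltn1 KO over WT was 1.33 (1.20 to 1.48) for the SC pair and 1.46 (1.30 to 1.63) for the TTC pair. Between these pairs the ratio changed by a factor of 0.916 (0.787 to 1.07), an interval that includes no change.

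Marcksl1 (ENSMUST00000062356.6, chromosome 4, 129513581 to 129515981) encodes the small MARCKS-like protein, which binds actin and calmodulin at the membrane. It went the other way from Gap43, with 141 RPM in KO SC (378 reads), compared with 205 RPM in WT SC (429 reads). Its level was 159 RPM in KO TTC (583 reads), compared with 218 RPM in WT TTC (318 reads). The KO SC (128 to 156 RPM) and KO TTC (147 to 173 RPM) intervals overlapped each other, as did those of WT SC (186 to 225 RPM) and WT TTC (194 to 243 RPM). No Ltn1 KO interval reached a WT interval, but as for Gap43 the share of all transcripts with such a gap was not counted. The ratio of Ltn1 KO over WT was 0.691 (0.600 to 0.795) for the SC pair and 0.732 (0.638 to 0.842) for the TTC pair.

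Calm2 (ENSMUST00000040440.6, chromosome 17, 87433401 to 87446935) had 485 RPM (459 to 512, 1296 reads) in KO SC, compared with 402 RPM (375 to 430, 843 reads) in WT SC. In the TTC pair it had 459 RPM (437 to 481, 1678 reads) in KO TTC, compared with 365 RPM (335 to 397, 533 reads) in WT TTC. Both Ltn1 KO libraries were again above both WT libraries, by ratios of 1.21 (1.10 to 1.32) for the SC pair and 1.26 (1.14 to 1.39) for the TTC pair. This was the narrowest range of the 4 genes, with the highest library 1.33 times the lowest.

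Crmp1 (ENSMUST00000031004.10, gene span chromosome 5, 37242058 to 37292163) followed none of these patterns. It had 7.48 RPM in KO SC (20 reads) against 18.1 RPM in WT SC (38 reads), and 32.6 RPM in KO TTC (119 reads) against 26.7 RPM in WT TTC (39 reads). KO SC was the lowest library and KO TTC the highest, at 4.35 times its level. The interval of KO SC (4.57 to 11.6 RPM) lay below that of WT SC (12.8 to 24.9 RPM). WT SC and WT TTC (19.0 to 36.5 RPM) overlapped, as did WT TTC and KO TTC (27.0 to 39.0 RPM). The ratio of Ltn1 KO over WT was 0.413 (0.228 to 0.727) for the SC pair and 1.22 (0.843 to 1.80) for the TTC pair, so the direction differed between the pairs. The ratio in the SC pair was 0.339 times that in the TTC pair (0.177 to 0.649). The plot of levels by library shows this beside the steadier genes.

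**Figure D1:**
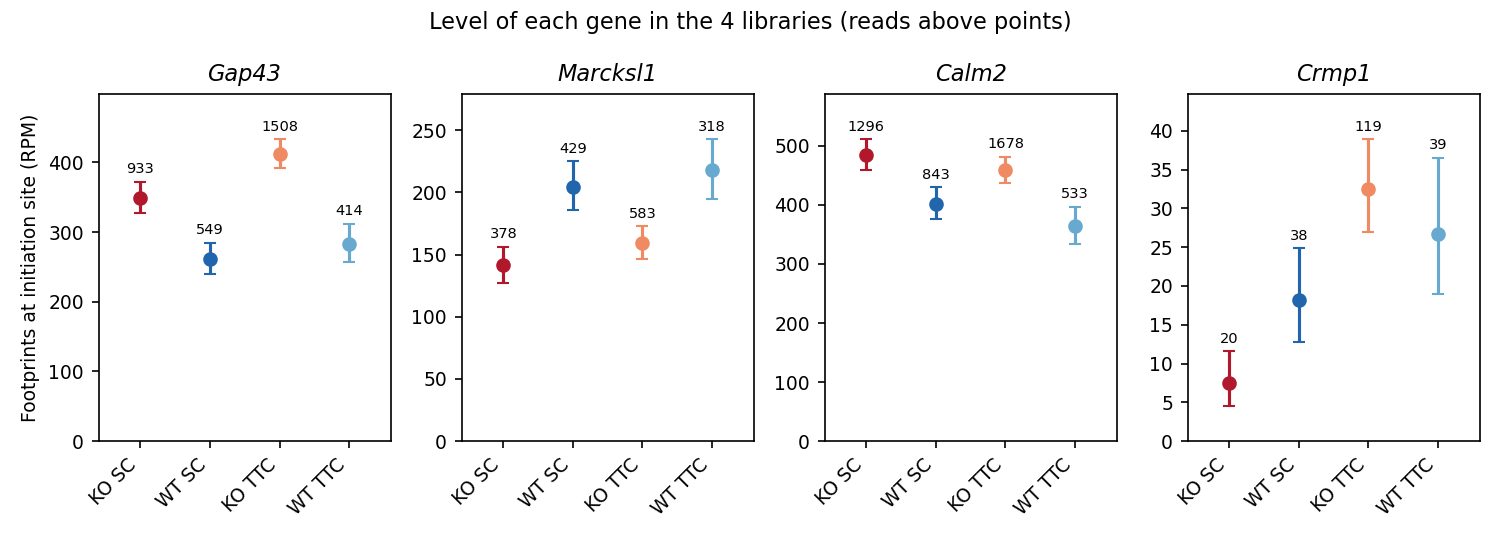
Footprints at the initiation site in RPM (vertical axes, from 0) in the libraries KO SC, WT SC, KO TTC and WT TTC (horizontal axes). Points are single libraries, bars exact Poisson 95% intervals and the numbers above them reads. Gap43 and Calm2 are higher and Marcksl1 lower in both Ltn1 KO libraries, while Crmp1 is lowest in KO SC at 7.48 RPM and highest in KO TTC at 32.6 RPM.

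The ratios were then set beside those of all transcripts. At 1.5-fold, 1 of the 4 genes (Crmp1) was lower in KO SC than WT SC, where 22.4% of the 2577 transcripts with at least 20 reads in the pair were, and 0 of 4 were higher, against 13.0%. A share of 1 in 4 lies near that background, so the count says nothing particular about these genes. In the TTC pair 0 of 4 passed in either direction, against 19.1% of 2800 transcripts higher and 18.0% lower in KO TTC. Crmp1 had the 124th lowest of 2577 ratios in the SC pair and stood 903rd from the highest of 2800 in the TTC pair. For the 3 deeply read genes, transcripts with at least 500 reads in a pair give a closer measure, a limit set after the values were seen. Among these, the median size of the log2 ratio was 0.217 over 76 transcripts (SC pair) and 0.240 over 89 (TTC pair). On this scale Gap43 was at 0.41 and 0.54, Marcksl1 at -0.53 and -0.45, and Calm2 at 0.27 and 0.33, in the SC and TTC pair in that order. Gap43 ranked 7th from the highest of 76 in the SC pair and 2nd of 89 in the TTC pair. Marcksl1 ranked 6th from the lowest of 76 and 11th of 89, and Calm2 15th from the highest in both. Among transcripts with at least 20 reads the ranks were far less extreme. Gap43 was 495th and Calm2 686th from the highest of 2577 in the SC pair, and 573rd and 845th of 2800 in the TTC pair. Marcksl1 was 642nd and 666th from the lowest.

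The SC and TTC pairs have no library in common. Of 69 transcripts with at least 500 reads in each pair, 26 were higher in both libraries labelled Ltn1 KO and 20 were lower in both. By the smaller of their increases, Gap43 ranked 4th and Calm2 9th among the 69. By the smaller of its decreases, Marcksl1 ranked 2nd. With at least 20 reads in each pair, 551 of 2310 transcripts were higher in both and 777 lower in both. Gap43 then ranked 140th and Calm2 249th by increase, and Marcksl1 224th by decrease.

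**Figure D2:**
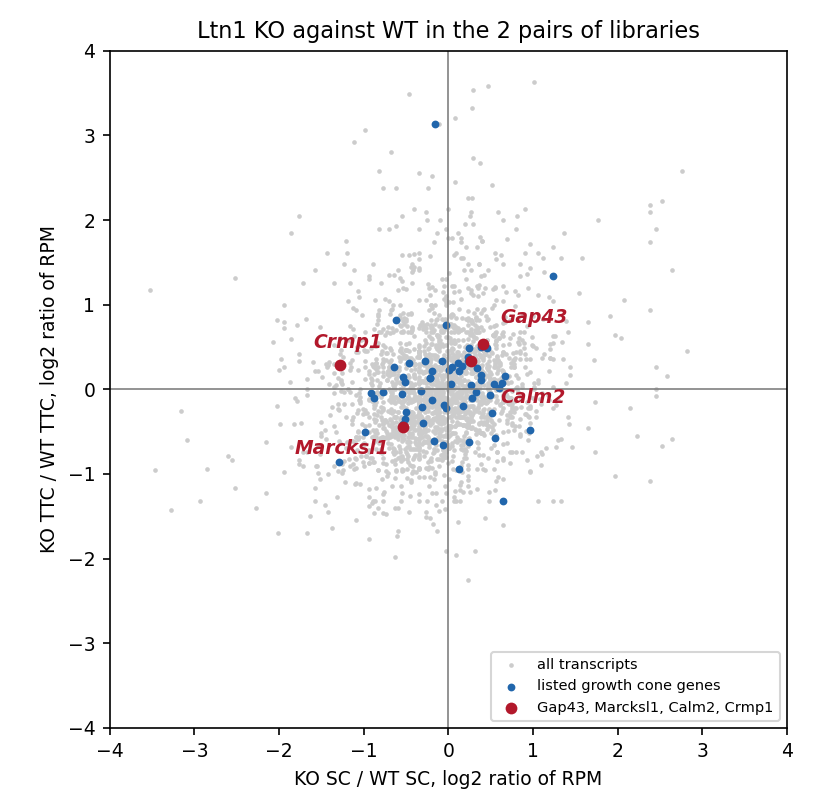
Log2 ratio of RPM, KO SC over WT SC (horizontal axis) and KO TTC over WT TTC (vertical axis), for the 2310 transcripts with at least 20 reads in each pair (grey), growth cone genes of the lists (blue) and Gap43, Marcksl1, Calm2 and Crmp1 (red), with libraries at 0 reads set to 3 reads. Gap43 and Calm2 lie in the quadrant higher in both pairs, Marcksl1 in the quadrant lower in both, and Crmp1 at -1.28 for the SC pair and 0.29 for the TTC pair.

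The RNAi arms were compared within each genotype as SC over TTC. In Ltn1 KO, Crmp1 had a ratio of 0.230 (0.136 to 0.371), the 103rd lowest of 3030 transcripts. In WT the ratio was 0.679 (0.423 to 1.09), which includes 1. Gap43 was lower in KO SC than in KO TTC by a ratio of 0.846 (0.779 to 0.919), and its ratio between the WT libraries was 0.924 (0.812 to 1.05). The log2 ratio of Gap43 in Ltn1 KO, -0.24, lay close to the median over all 3030 transcripts, -0.192. Marcksl1 had ratios of 0.887 (0.777 to 1.01) in Ltn1 KO and 0.940 (0.811 to 1.09) in WT, both so near 1 that their direction turns under another scaling. Calm2 had ratios of 1.06 (0.982 to 1.14) in Ltn1 KO and 1.10 (0.987 to 1.23) in WT. For Marcksl1 and Calm2 all these intervals include 1. At 1.5-fold, 1 of the 4 genes was lower in KO SC than in KO TTC (Crmp1), where 29.5% of 3030 transcripts were, and 0 were higher, against 13.5%, again a count near the background. Between WT SC and WT TTC 0 of the 4 passed, against 17.8% of 2226 transcripts higher and 23.0% lower in WT SC.

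**Figure D3:**
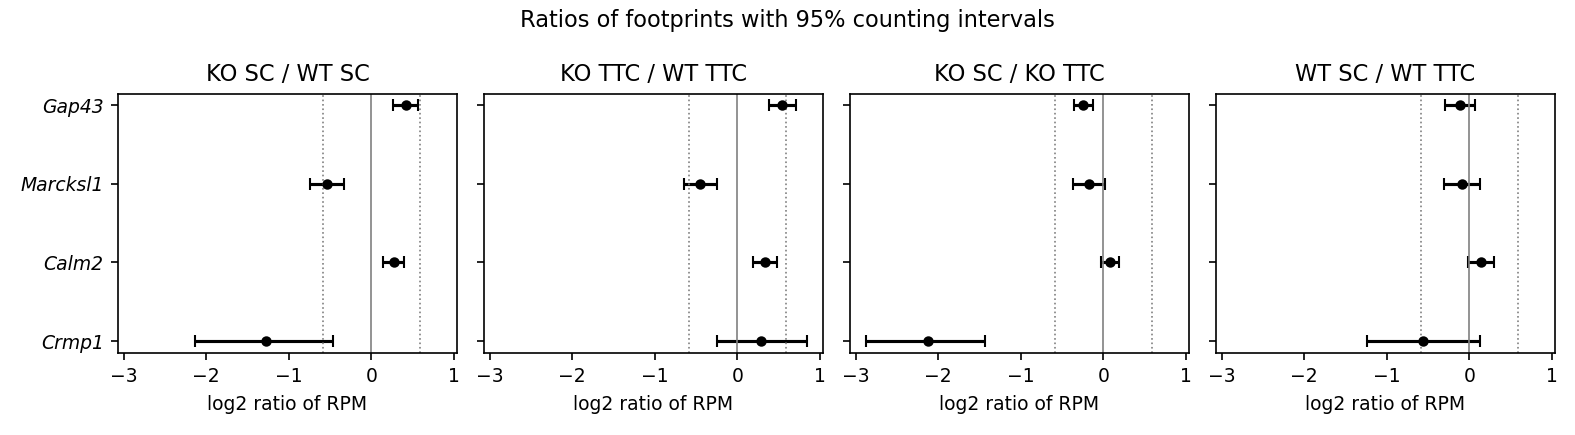
Log2 ratio of RPM (horizontal axes) of Gap43, Marcksl1, Calm2 and Crmp1 (rows) in KO SC over WT SC, KO TTC over WT TTC, KO SC over KO TTC and WT SC over WT TTC. Points are ratios of single libraries, bars 95% counting intervals, and dotted lines mark 1.5-fold. Crmp1 stands at -2.12 in KO SC over KO TTC, beyond the other ratios.

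The families of the 4 genes did not move as a block. Of the membrane-bound growth cone proteins, Basp1, which shares the membrane and calmodulin binding of GAP43, had 162 RPM in KO SC, compared with 144 RPM in WT SC. Its level was 186 RPM in KO TTC, compared with 213 RPM in WT TTC. Its ratios of 1.13 (0.971 to 1.31) and 0.875 (0.764 to 1.00) lay on opposite sides of 1. Marcks, the larger relative of Marcksl1, had 101 RPM in KO SC, compared with 66.8 RPM in WT SC, a ratio of 1.51 (1.23 to 1.87). In the TTC pair it had 98.2 RPM in KO TTC, compared with 97.2 RPM in WT TTC (ratio 1.01, 0.829 to 1.24). Marcks and Marcksl1 thus had ratios on opposite sides of 1 in the SC pair.

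Calm3, which encodes the same protein as Calm2, had ratios above 1 in both pairs, as Calm2 did. It had 217 RPM in KO SC, compared with 185 RPM in WT SC (ratio 1.18, 1.03 to 1.34), and 153 RPM in KO TTC, compared with 121 RPM in WT TTC (ratio 1.27, 1.07 to 1.51). How reads that match both genes were counted is not given in the sources used here, so the division of reads between them is uncertain. Calm3 was also higher in SC than in TTC libraries, by ratios of 1.42 (1.26 to 1.59) in Ltn1 KO and 1.52 (1.27 to 1.83) in WT. The intervals of Calm2 in the same comparisons included 1.

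Within the CRMP family, Crmp1 and Dpysl4 were lower in KO SC than WT SC. Dpysl4 had 9.35 RPM in KO SC, compared with 17.2 RPM in WT SC (ratio 0.545, 0.313 to 0.933), and 11.5 RPM in KO TTC, compared with 12.3 RPM in WT TTC. Dpysl2, which encodes CRMP2, had the higher level in KO SC instead, with 8.98 RPM in KO SC (24 reads) against 3.82 RPM in WT SC (8 reads), a ratio of 2.35 (1.02 to 6.06). In the TTC pair Dpysl2 had 19 reads in KO TTC against 3 in WT TTC. Dpysl5 was lower in the SC libraries of both genotypes, whereas the interval of Crmp1 in WT, 0.423 to 1.09, included 1. In Ltn1 KO neurons Dpysl5 had 15.0 RPM in KO SC against 28.4 RPM in KO TTC (ratio 0.526, 0.356 to 0.764). In WT neurons Dpysl5 had 11.4 RPM in WT SC against 25.3 RPM in WT TTC (ratio 0.452, 0.259 to 0.776). Dpysl3 had 2 to 12 reads a library, too few to compare.

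**Figure D4:**
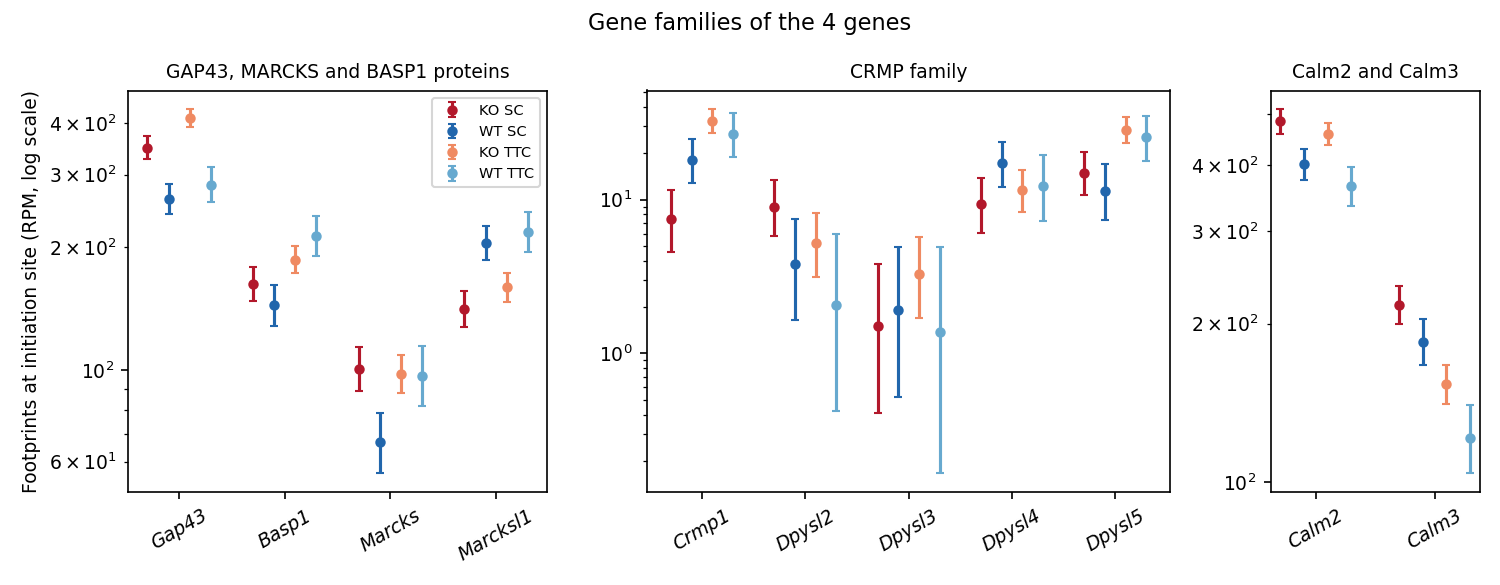
Footprints at the initiation site in RPM (vertical axes, log scale) of the membrane-bound growth cone genes, the CRMP family and Calm2 with Calm3, by library from KO SC (left) to WT TTC (right), with exact Poisson 95% intervals. Calm2 and Calm3 are higher in each Ltn1 KO library than in its WT partner, while in the CRMP family Crmp1 and Dpysl4 are lower and Dpysl2 is higher in KO SC than WT SC.

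A wider list of 97 growth cone genes, of which 89 were measured, put these genes in context. It includes the 4 genes themselves. In the SC pair 7 of the 66 with at least 20 reads were at least 1.5-fold higher in KO SC (10.6%) and 9 lower (13.6%), with a median log2 ratio of 0.0216 against -0.106 over all transcripts. In the TTC pair 4 of 65 were higher in KO TTC (6.15%) and 6 lower (9.23%), with a median of 0.0643 against -0.0242. For KO SC over KO TTC 9 of 69 were higher (13.0%) and 16 lower (23.2%), against 13.5% and 29.5% of all transcripts. The median log2 ratio there was -0.174 against -0.192. For WT SC over WT TTC 6 of 59 were higher (10.2%) and 12 lower (20.3%), against 17.8% and 23.0%. The median there was -0.0894 against -0.0808. The list was not matched to other transcripts for depth, and no test of it was made. By role, of 14 microtubule genes 0 were higher and 0 lower in the SC pair, and 0 higher and 2 lower in the TTC pair. Of actin genes 1 of 16 was higher and 3 lower in KO SC, and 1 of 15 higher and 1 lower in KO TTC. Of calmodulin targets 2 of 8 were higher and 2 lower in KO SC, and 0 of 10 higher and 3 lower in KO TTC. Over all transcripts the shares were 13.0% higher and 22.4% lower in KO SC, and 19.1% higher and 18.0% lower in KO TTC.

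Among the partners of calmodulin, the kinase subunits Camk2g and Camk2d were lower in both libraries labelled Ltn1 KO. Camk2g had 10.1 RPM in KO SC, compared with 24.8 RPM in WT SC (ratio 0.407, 0.246 to 0.660), and 14.8 RPM in KO TTC, compared with 26.7 RPM in WT TTC (ratio 0.553, 0.360 to 0.858). Camk2d had 23.9 RPM in KO SC, compared with 47.2 RPM in WT SC (ratio 0.507, 0.364 to 0.701). Its level was 36.1 RPM in KO TTC, compared with 51.4 RPM in WT TTC (ratio 0.703, 0.526 to 0.946). Camk2b had 194 RPM in KO SC, compared with 218 RPM in WT SC, and a ratio of 0.654 (0.577 to 0.742) in KO TTC over WT TTC. For Camk2a, the forebrain subunit, the ratios of Ltn1 KO over WT included 1, at 1.26 (0.943 to 1.70) and 1.19 (0.792 to 1.82). Between the RNAi arms Camk2a was higher in SC than in TTC libraries, by ratios of 1.73 (1.32 to 2.28) in Ltn1 KO and 1.63 (1.07 to 2.52) in WT. Of the kinases upstream of CRMPs, Cdk5 and Gsk3b were lower in KO SC than in KO TTC, by ratios of 0.550 (0.361 to 0.823) and 0.595 (0.459 to 0.765). At 1.5-fold, 29.5% of 3030 transcripts were lower in that comparison. Cdk5r1, which encodes the activator of Cdk5, had a ratio of 0.780 (0.641 to 0.947) there. Of the actin genes, Actg1 had a ratio of 0.530 (0.432 to 0.651) and Rhoa, a GTPase that controls actin, one of 1.56 (1.14 to 2.15) in KO SC over WT SC. The TTC pair did not repeat these gaps, with Actg1 at 97.7 RPM in KO TTC and 101 RPM in WT TTC. Rhoa had 42.4 RPM in KO TTC and 40.4 RPM in WT TTC. The actin-severing protein gene Cfl1 and the actin-bundling gene Fscn1 had ratios of 0.481 (0.438 to 0.527) and 0.493 (0.341 to 0.702) in KO SC over KO TTC, where Cap2, of an actin-binding protein, had 3.70 (2.08 to 6.89). Of the microtubule genes, Tuba1a had a ratio of 1.40 (1.24 to 1.58) and Stmn3 one of 0.634 (0.518 to 0.778) in KO TTC over WT TTC. Gpm6a, a membrane glycoprotein of the growth cone, had a ratio of 0.585 (0.528 to 0.649) in KO SC over WT SC, and Rtn1, of an ER membrane protein, one of 1.59 (1.32 to 1.90). In the TTC pair Gpm6a had 339 RPM in KO TTC and 346 RPM in WT TTC. The ratio of Rtn1 there was 1.12 (0.88 to 1.42), which includes 1.

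The transcripts most like each gene were sought by the distance of log2(RPM + 1), centred on its mean over the 4 libraries, among 1356 others with a mean of at least 10 RPM. Nearest to Gap43 was Dcx, the microtubule-binding doublecortin of young neurons, at a distance of 0.0528. Dcx had 61.4 RPM in KO SC, compared with 44.8 RPM in WT SC. Its level was 69.2 RPM in KO TTC, compared with 49.3 RPM in WT TTC. Tppp, a tubulin-binding protein gene (0.0736), and Ly6h (0.105) followed. Nearest to Marcksl1 were Mat2a, which makes S-adenosylmethionine (0.0672), the RNA-binding protein gene Hnrnpl (0.0723) and Mal2 (0.0896). Nearest to Calm2 were Necap1 and Ap1m1, both of clathrin-coated vesicles (0.0377 and 0.0523), and Tmx2 (0.0621). Crmp1 had no neighbour as close, with Pdia6, a disulfide isomerase of the ER, at 0.350, Plekha2 at 0.419 and Tm9sf3 at 0.433. Among the 4 genes, Gap43 and Calm2 were closest, at 0.338, and Crmp1 and Calm2 farthest apart, at 1.71. With 4 libraries and many transcripts, such closeness is a description of these values.

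Some markers of other cell types were lowest in KO SC and others were not. Of oligodendrocyte genes, Mbp had 0 RPM in KO SC, 9.54 RPM in WT SC, 10.4 RPM in KO TTC and 15.7 RPM in WT TTC, and Olig1 and Cnp were also lowest in KO SC. Olig2 was instead lowest in KO TTC, at 6.29 RPM against 7.48 RPM in KO SC, and Pdgfra in WT SC. The 7 measured of 8 astrocyte markers summed to 113 RPM in KO SC, 192 RPM in WT SC, 173 RPM in KO TTC and 229 RPM in WT TTC. The 4 measured of 6 progenitor markers summed to 23.9 RPM in KO SC, 38.6 RPM in WT SC, 43.2 RPM in KO TTC and 58.2 RPM in WT TTC. KO SC had the lowest sum of both lists, as it had the lowest level of Crmp1, and singly it was the lowest for 4 of the 7 astrocyte and 3 of the 4 progenitor markers. The WT TTC library was the highest for both lists, whereas Crmp1 was highest in KO TTC. Low values in KO SC were not confined to markers of other cell types. Of the 13 neuron markers, 5 were also lowest in KO SC, although their sum, most of it Tubb3, was highest there at 1751 RPM. None of the 8 microglia markers listed was measured, and of 4 vascular markers only Dcn, with 0 or 4 reads in each library. Fewer cells of a type and fewer footprints per cell cannot be told apart in such cultures, and the part of these cells in the values of Crmp1 was not tested.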

How the data were processed

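The authors deposited RPM of ribosome footprints at translation initiation sites, with all reads of each library as the base. Per the labels, Bowtie, SAMtools and bedtools were used with GRCm38/mm10. Versions, the window counted and the handling of reads with several matches are not given in the sources used here. Of all values, 100% came out as whole reads (tolerance 1e-06), so reads were recovered. A floor of 3 reads was 0.821 to 2.05 RPM. Symbols were joined by transcript identifier from the study's gene list, after 38 identifiers with an extra digit had been mended, and gene positions came from RefSeq (GRCm38.p6).

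The main measure was the ratio of RPM of single libraries, with an exact conditional binomial (Clopper-Pearson) 95% interval. Intervals of levels are exact Poisson, and those of a change between pairs rest on the normal approximation to log reads. Reads without molecular identifiers are not independent molecules, so intervals and floors cover counting error only. Transcripts with at least 20 reads in a pair were counted at 1.5-fold, with a library at 0 reads set to the floor. The genes and lists were chosen with earlier results of these data known. Named genes were the 4 genes, their families, the 2 largest and 2 smallest ratios of each other list at a mean of at least 10 RPM, and the 3 nearest transcripts of each gene. Of those in the other lists, the genes given in the text were picked after their values were seen. Alternatives were other scalings, filters, a fold of 2, a pseudocount of 1 RPM and edgeR's quasi-likelihood test on the recovered reads with additive terms for genotype and RNAi. Scripts were tested on simulated data. Python 3.11.15, numpy 2.4.6, pandas 2.3.3, scipy 1.17.1, R 4.3.3 and edgeR 4.0.16 were used. Some values of the listed genes are not reported here.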

Additional observations from a re-analysis of the deposited data

Results flagged for a closer look

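Crmp1 was the 1 gene of the 4 whose Ltn1 KO ratio ran in opposite directions in the SC and TTC pairs. The log2 ratio in the SC pair minus that in the TTC pair was -1.56, from 20 reads in KO SC, 38 in WT SC, 119 in KO TTC and 39 in WT TTC. The difference was not tested, since each group is 1 library.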

How the results depend on the processing

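Gap43 and Calm2 stayed higher and Marcksl1 lower in both libraries labelled Ltn1 KO under every scaling and the pseudocount. The edgeR fit gives 1 genotype value over both pairs, 0.477 for Gap43, 0.3 for Calm2 and -0.491 for Marcksl1. Equal sums over the listed sites, median-of-ratios factors and TMM factors raised all log2 ratios of a comparison by 0.033 to 0.188, which takes out a general decrease by construction. In KO SC over WT SC, Gap43 moved to 0.603 with TMM factors, and Calm2 to 0.409 with median-of-ratios and 0.458 with TMM factors. In KO SC over KO TTC, Gap43 moved to -0.096, -0.066 and -0.07 and Calm2 to 0.224, 0.254 and 0.25 with equal sums, median-of-ratios and TMM factors in that order. Marcksl1 in WT SC over WT TTC was at 0.006 with median-of-ratios and TMM factors and at 0.014 with equal sums, against -0.089, and in KO SC over KO TTC at 0.001 with median-of-ratios factors, so its sign between the RNAi arms depends on the scaling. Crmp1 kept its directions under every scaling, but edgeR's additive fit, with 1 RNAi value too, put it at -0.351 for Ltn1 KO over WT, against its direction in the TTC pair, and at -1.333 for SC over TTC. edgeR called 0 of 3703 transcripts for genotype (at an unadjusted p of 0.05, 97 were higher and 150 lower, and with TMM factors 133 and 102, also with 0 called) and 0 for RNAi (153 higher and 341 lower at that p, and 213 and 242 with TMM factors), with 1 residual degree of freedom.

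Of growth cone genes, the count higher in KO SC than WT SC at 1.5-fold was 7, with 13, 12, 1 and 11 under TMM, median-of-ratios, a fold of 2 and no filter with a pseudocount of 1 RPM. The count lower there was 9, with 5 (TMM) and 2 (fold of 2). In KO TTC against WT TTC the count higher was 4, with 8, 2, 2 and 8 under TMM, a fold of 2, a mean of at least 5 RPM and no filter, and the count lower was 6, with 3, 1 and 10 under TMM, a fold of 2 and no filter. In KO SC against KO TTC 9 were higher, with 4 at a fold of 2, and 16 lower, with 8, 8 and 6 under TMM, median-of-ratios and a fold of 2. In WT SC against WT TTC 6 were higher and 12 lower, with 1 and 3 at a fold of 2 and 13 and 23 with no filter. The edgeR count was 0 in each case. Over all transcripts, a fold of 2 left 123 higher and 223 lower in KO SC than WT SC (336 and 578 at 1.5-fold, turned to 511 and 386 by TMM factors), 271 and 173 in KO TTC against WT TTC (535 and 505, and 647 and 390 with TMM factors), 160 and 451 in KO SC against KO TTC (409 and 894, and 576 and 683 with TMM factors), and 195 and 226 in WT SC against WT TTC (396 and 512, and 457 and 425 with TMM factors).

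Depth limits Crmp1 (20 reads in KO SC) among the 4 genes. The ratios compare the genotypes within each RNAi arm, whereas the additive fit gives 1 genotype value over both arms. There are no replicate numbers to pair.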
